A study of Mus musculus with 12 samples.

Results

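The Ifi200 genes encode the PYHIN proteins of mouse, a family of interferon-inducible proteins that bind DNA. All 9 genes chosen by symbol (Ifi203, Ifi204, Ifi207, Ifi209, Ifi211, Ifi213, Ifi214, Mndal and Aim2) were found among the 55291 rows of the count table, and all 9 were among the 17289 genes with enough counts to be tested. They were followed in MC3T3-E1 cells, an established mouse preosteoblast line of wild-type genotype, so every group comes from 1 line. The cells were grown for bone differentiation, and the libraries of days 14 and 21 came from differentiating cells. Day 0 was the point 2 days after confluence at which differentiation was started. Control and IFN cells were each sampled at days 0, 14 and 21, with 2 libraries per group. Differentiating IFN cells were given mouse interferon beta at a labelled dose of 50 mg/L, and the labels do not say whether the IFN libraries of day 0 were taken before or after it was added. Nor do they say whether the 2 libraries of a group were separate cultures, so the p-values measure only the spread between these libraries.

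PYHIN proteins join an N-terminal pyrin domain, which binds other pyrin domains, to a C-terminal HIN domain, which grips the sugar-phosphate backbone of DNA without reading its sequence. AIM2 senses DNA in the cytosol and recruits the adaptor ASC and caspase-1 into an inflammasome, while p204, the product of Ifi204, is often treated as the mouse counterpart of human IFI16 and signals from cytosolic DNA through STING. Type I interferon acts through its receptor on transcription factors that bind the interferon-stimulated response element (ISRE) in the promoters of responding genes.

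The family sits in 1 cluster on chromosome 1, from position 173350879 to 174031810 (mm10, GENCODE M21 gene models), a span of 680.9 kb. Aim2 lies at the end with the lowest coordinates (173350879 to 173466040, plus strand). It is followed among the members by Ifi214 (173519717 to 173535957, minus), Ifi213 (173566283 to 173599274, minus), Ifi209 (173630917 to 173647928, plus), Ifi207 (173723427 to 173741747, minus) and Ifi204 (173747293 to 173766943, minus). Mndal (173849126 to 173942491, minus), Ifi211 (173896345 to 173913046, minus) and Ifi203 (173920407 to 173942672, minus) stand together near the other end. The GENCODE model of Mndal spans all of Ifi211 and most of Ifi203, and its exons overlap those of Ifi203 by 37 bases. The cluster also holds Ifi202b, Ifi205, Ifi206 and Ifi208, which are protein-coding, and Ifi203-ps, an unprocessed pseudogene.

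The promoters of the members are shown as a description, and whether they bear on the response to IFN was not tested. RefSeq (GRCm38.p6) gave a promoter for 8 of the 9 members, with no entry for Ifi204. Each line below is the stretch of 90 bases just before a RefSeq transcript start, on chromosome 1. The starts used for Aim2, Mndal and Ifi203 lie inside their GENCODE gene models, so they belong to some of the transcripts of these genes. That of Ifi213 lies within a few bases of the 5′ end of its model. The Ifi203 stretch shown also lies directly before the 5′ end of the GENCODE model of Mndal, at 173942491. Ifi203 and Mndal have 2 windows each in RefSeq, and the one with GAAATCGAAA is shown. It runs 5′ to 3′ on the gene's own strand, with a match to the core of the ISRE, which is GAAA, any 2 bases and GAAA again, searched on both strands, in capitals. For Ifi209 the capitals mark the closest stretch, which misses the core by 1 base, and the Aim2 window has no match.
Ifi203: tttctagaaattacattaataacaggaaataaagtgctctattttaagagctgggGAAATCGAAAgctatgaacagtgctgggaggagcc
Mndal: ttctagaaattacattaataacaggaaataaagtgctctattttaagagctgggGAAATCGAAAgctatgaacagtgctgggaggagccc
Ifi207: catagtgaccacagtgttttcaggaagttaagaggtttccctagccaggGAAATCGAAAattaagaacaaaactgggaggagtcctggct
Ifi211: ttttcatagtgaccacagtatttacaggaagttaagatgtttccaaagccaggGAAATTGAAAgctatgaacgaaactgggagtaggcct
Ifi213: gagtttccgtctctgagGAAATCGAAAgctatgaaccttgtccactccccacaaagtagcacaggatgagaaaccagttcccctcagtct
Ifi214: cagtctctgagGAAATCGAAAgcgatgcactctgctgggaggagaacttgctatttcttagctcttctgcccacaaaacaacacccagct
Ifi209: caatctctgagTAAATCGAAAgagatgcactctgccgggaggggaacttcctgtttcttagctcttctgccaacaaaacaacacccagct
Aim2: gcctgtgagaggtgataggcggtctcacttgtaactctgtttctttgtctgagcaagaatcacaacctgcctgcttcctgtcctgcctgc
These stretches are Ifi203 chr1:173942493-173942582 (minus), Mndal chr1:173880188-173880277 (minus), Ifi207 chr1:173741810-173741899 (minus), Ifi211 chr1:173913047-173913136 (minus), Ifi213 chr1:173599273-173599362 (minus), Ifi214 chr1:173535958-173536047 (minus), Ifi209 chr1:173630769-173630858 (plus) and Aim2 chr1:173420514-173420603 (plus).

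The ISRE core was present in a promoter window (250 bases before to 50 after the start) of 6 of the 8 members with an entry, and in 3.44% of all 32851 RefSeq promoters of that length, or at least 1 promoter of 3.99% of genes. The other Ifi203 window had no match, and the other Mndal window held TTTCTCTTTC, a match on the opposite strand. In 5 members (Ifi203, Mndal, Ifi207, Ifi213 and Ifi214) the matching letters were the same, GAAATCGAAA, a string found in 0.0487% of promoters and searched for only after these sites had been seen. Ifi211 carried GAAATTGAAA, a C6T difference from that string, with positions counted from 1 at its 5′ end. The closest stretch in Ifi209, TAAATCGAAA, differed by G1T. The sites shown began 35 bases before the start in Ifi203, 36 in Mndal, 37 in Ifi211, 41 in Ifi207, 73 in Ifi213 and 79 in Ifi214. The windows of 70 bases around the site were identical between Ifi203 and Mndal at 70 of 70 positions. They matched at 61 of 70 between Ifi209 and Ifi214, and at 59 of 70 between Ifi207 and Ifi211. Letters in a promoter are a description here and no binding was measured.

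Libraries held 29772425 to 38908453 counts, and a gene with 0 counts may still be expressed below that depth. Osteoblast markers summed to 10824 to 31218 CPM (counts per 1e+06 counts, scaled by the TMM library factors of edgeR) in the 12 libraries, carried by Col1a1, Col1a2, Sparc and Spp1. Runx2, the master regulator of the lineage, averaged 82.5 to 110.4 CPM by group, while later markers were low or absent at day 0 in control: Alpl averaged 1.75 CPM, Bglap 0.543 CPM, and Ibsp had 0 counts. The 12 macrophage markers summed to 23.4 to 55.7 CPM, highest at day 0, with Lyz2 at up to 34.1 CPM, and Tyrobp had 0 counts in all 12 libraries. B and T lymphocyte markers summed to at most 0.844 CPM. Control libraries varied more than IFN libraries: the median difference between the 2 libraries of a group over all tested genes, in size, was 0.41, 0.34 and 0.62 on the log2 scale at days 0, 14 and 21 in control, and 0.12, 0.12 and 0.16 with IFN. Of the control libraries, 2 stood apart in genes outside the family. The day 0 replicate 1 library held 21084 CPM of the unnamed gene CT010467.1 against at most 8633 elsewhere, and the day 21 replicate 2 library held 25678 CPM of the chaperone gene Hspa5 against at most 1828 elsewhere. Member counts are given below with and without both.

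At day 14, 8 of the 9 members rose with IFN (edgeR quasi-likelihood test, Benjamini-Hochberg adjusted p below 0.05 over all tested genes), against 1.30% of all tested genes that were called higher. Aim2 was the member that did not pass. The IFN libraries lay above the control libraries for 9 of 9 members, which held for 28.6% of all tested genes. The median log2 fold change of the 9 was 3.74, beside -0.0075 over all tested genes. Without both of the control libraries that stood apart, Ifi213 was not called, and its log2 fold change was 5.51. That fit called more of all tested genes than the main fit, in both directions.

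Among the members with known roles in DNA sensing, Ifi204 measured 37.4 and 48.3 CPM in the control libraries of day 14 and 460.2 and 434.2 CPM in the IFN libraries. Both IFN values stood far above both control values, and Ifi204 rose by 3.38 ± 0.69 (log2 fold change ± SE, adjusted p = 0.0312), a 10.4-fold difference. Aim2 measured 38.4 and 43.7 CPM in control and 50.7 and 50.1 CPM with IFN. The groups did not overlap, yet the difference was small, 0.30 ± 0.22 with a 95% interval from -0.20 to 0.79 (adjusted p = 0.626). The interval of Aim2 ended below the start of that of Ifi204, which ran from 1.85 to 4.92.

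Ifi203, Mndal and Ifi211, neighbours at the far end of the cluster from Aim2, were measured in every control library and rose with the smallest standard errors among the members that rose. The products of Ifi203 and Mndal, p203 and MNDAL, are nuclear proteins. Mndal measured 31.1 and 49.7 CPM in control and 536.0 and 541.5 CPM with IFN. It rose by 3.74 ± 0.23 (13.3-fold, adjusted p = 4.48e-05). Ifi203 measured 17.8 and 44.5 CPM in control and 609.2 and 627.7 CPM with IFN, the highest counts of the 9 under IFN, and rose by 4.31 ± 0.49 (19.8-fold, adjusted p = 0.00129). Ifi211 measured 23.4 and 17.8 CPM in control and 234.9 and 232.8 CPM with IFN. It rose by 3.51 ± 0.31 (11.4-fold, adjusted p = 0.000377), and its control libraries were ordered opposite to those of the other 8 members. The calls of Ifi203, Mndal and Ifi211 at day 14 held when any 1 of the 12 libraries was left out.

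Ifi207, whose product carries a long repeat region between pyrin and HIN domains, measured 54.1 and 94.04 CPM in control and 574.6 and 595.9 CPM with IFN. It had the highest control level of the 9 and among the members that rose the smallest fold change, 2.98 ± 0.60 (7.90-fold, adjusted p = 0.0299). Leaving out 1 library at a time kept the call of Ifi207 in 2 of 12 fits, those without a control library of day 0, and that of Ifi204 in 4 of 12, those without a control library of day 0 or day 21. The highest adjusted p in the other fits was 0.258 for Ifi207 and 0.257 for Ifi204. Without IFN replicate 1 of day 14, for example, the adjusted p was 0.184 for Ifi207 and 0.210 for Ifi204, with nearly the same log2 fold changes of 2.98 and 3.32.

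Ifi209, Ifi213 and Ifi214, less studied members, had the lowest control levels of the 9 and the largest fold changes. Ifi209 measured 2.14 and 8.37 CPM in control and 192.3 and 192.8 CPM with IFN, and rose by 5.19 ± 0.77 (36.6-fold, adjusted p = 0.00546). Ifi213 measured 0.610 and 12.05 CPM in control and 286.6 and 297.3 CPM with IFN. Its control libraries differed from each other by 4.18 on the log2 scale, and it rose by 5.53 ± 1.10 (46.1-fold, adjusted p = 0.0276). Ifi214 measured 0.0305 and 1.39 CPM in control, 47 counts in both libraries together, against 47.5 and 47.7 CPM with IFN. It rose by 6.06 ± 1.15 (adjusted p = 0.0225), and the size depended on 1 control library: the log2 fold change was 10.44 without control replicate 2, which left 1 count in control, and 5.10 without control replicate 1. For Ifi213 the same omissions gave 8.90 and 4.60. The calls of Ifi213 and of Ifi214 were kept in 5 of 12 fits each that left out 1 library. Both were lost when any 1 IFN library of day 14 or day 21, or IFN replicate 1 of day 0, was left out. Ifi213 was also lost without either control library of day 21, and Ifi214 without control replicate 1 of day 14 or IFN replicate 2 of day 0, with adjusted p up to 0.197 for Ifi213 and 0.190 for Ifi214. The call of Ifi209 was kept in 11 of 12, lost without IFN replicate 2 of day 14 (adjusted p = 0.051).

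**Figure D1:**
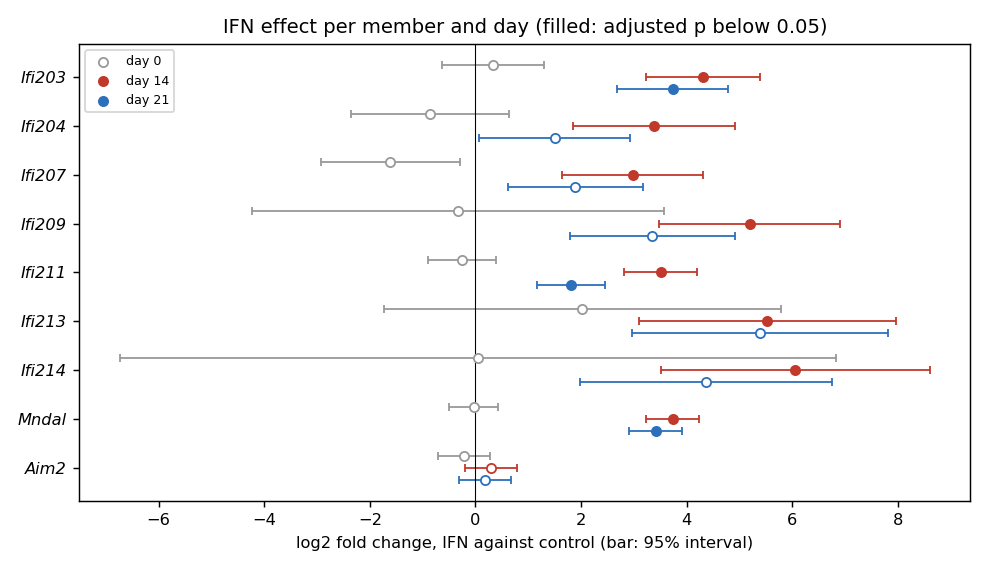
Log2 fold change of IFN against control for each of the 9 members at days 0, 14 and 21, with bars for the 95% interval of the edgeR fit and filled points for an adjusted p below 0.05. At day 14, 8 points are filled, from 2.98 for Ifi207 to 6.06 for Ifi214, while Aim2 sits at 0.30; at day 21 the filled points are Ifi203, Ifi211 and Mndal.

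The other family genes of the cluster were examined in the same way. Of the 5 other family genes, 4 could be tested, and all 4 rose at day 14: Ifi208 by 5.22, Ifi206 by 4.67, Ifi203-ps by 4.36 and Ifi205 by 4.06 (adjusted p from 0.000387 to 0.0417). Ifi202b had 4 counts in 1 library of IFN day 14, 4 in 1 library of IFN day 21 and 0 in the other 10 libraries, and was not tested. The 18 genes annotated inside the span or next to it, mostly olfactory receptors, microRNAs and pseudogenes, had few reads. Of these, 9 had 0 counts in every library and the highest total over the 12 libraries was 85 counts, in the pseudogene Gm18752. The only tested genes among them were Gm18752 and Gm18445.

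**Figure D2:**
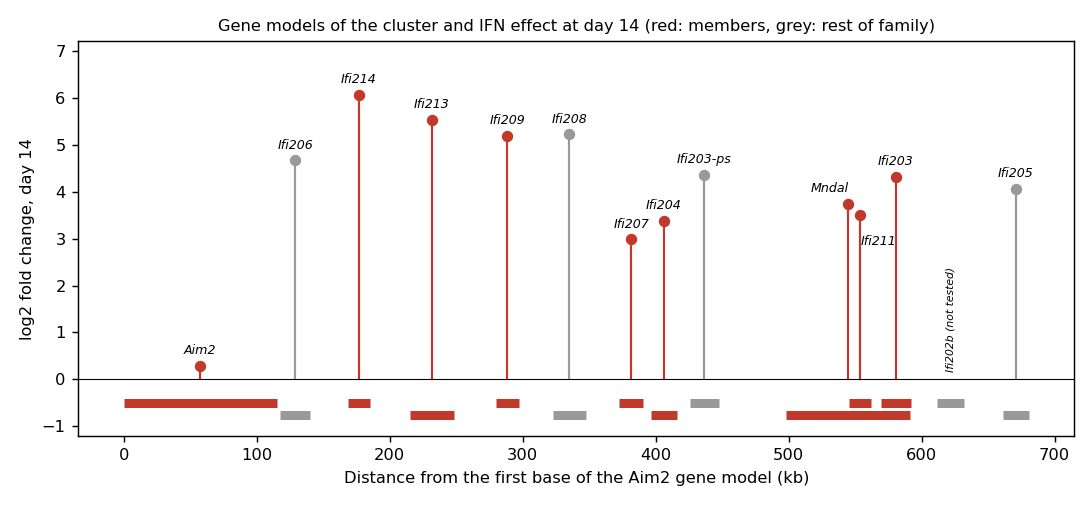
Gene models of the 14 family genes along the cluster, as distance from the first base of Aim2 in kb, with the day 14 log2 fold change of each tested gene above its model (red for members, grey for the rest of the family). Aim2, at the left end, is at 0.30 and the 12 other tested genes lie between 2.98 and 6.06.

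Reads of near-identical copies could have been assigned to more than 1 of these genes, or to none. Of the 50-base stretches in Ifi211 transcripts, 72.8% also occurred in another family gene, with 44.7% in Ifi205. The share was 33.4% for Ifi209, all of it with Ifi214, and 19.2% for Ifi204, 17.7% for Mndal, 15.6% for Ifi213, 14.5% for Ifi214, 12.2% for Ifi203 and 5.39% for Ifi207. Aim2 shared none. How multiply mapped reads were counted is not given in the sources used here, so the values of Ifi211 and Ifi209 in particular are uncertain.

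At day 21, 3 of the 9 members rose with IFN, against 0.839% of all tested genes called higher. The IFN libraries stood above the control libraries for 8 members, Aim2 being the exception, and this held for 20.9% of all tested genes. Mndal measured 39.97 and 38.7 CPM in control and 431.3 and 406.1 CPM with IFN, a rise of 3.41 ± 0.22 (adjusted p = 0.000202). Ifi203 measured 32.3 and 43.8 CPM in control and 528.8 and 483.2 CPM with IFN, a rise of 3.73 ± 0.48 (adjusted p = 0.00407). Ifi211 measured 30.95 and 48.2 CPM in control and 142.4 and 133.9 CPM with IFN, a rise of 1.80 ± 0.29 (adjusted p = 0.0149). These 3 neighbours at the Ifi203 end of the cluster again had the smallest standard errors among the members other than Aim2. Ifi213, Ifi214 and Ifi209 had larger fold changes than Ifi211 and did not pass. Of the 4 tested genes in the rest of the family, 2 rose at day 21.

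The DNA sensor Ifi204 and 5 other members did not pass at day 21. Ifi204 measured 43.4 and 163.5 CPM in control and 294.8 and 289.2 CPM with IFN (log2 fold change 1.498 ± 0.64, adjusted p = 0.355). Ifi209 measured 5.34 and 27.7 CPM in control and 156.1 and 178.7 CPM with IFN (3.35 ± 0.71, adjusted p = 0.0603). Ifi207 measured 81.1 and 144.3 CPM in control and 424.9 and 410.8 CPM with IFN (1.89 ± 0.58, adjusted p = 0.212). In each of these the higher control value was replicate 2, the library with high Hspa5, and it still lay below both IFN libraries.

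Ifi213 measured 3.0049 and 6.9975 CPM in control and 201.4 and 216.1 CPM with IFN at day 21, a log2 fold change of 5.39 ± 1.10 with an adjusted p of 0.0513. Ifi214 measured 0.117 and 1.78 CPM in control and 19.5 and 18.4 CPM with IFN (4.37 ± 1.08, adjusted p = 0.123). Aim2 measured 48.2 and 75.9 CPM in control and 68.4 and 71.8 CPM with IFN (0.18 ± 0.22, interval -0.31 to 0.67, adjusted p = 0.778), so its IFN libraries fell within the control range. The number of members called at day 21 depended on the test and the libraries. DESeq2 called 6, and without both control libraries that stood apart edgeR called 7. Those 7 included Aim2, at 0.53 (adjusted p = 0.0376), Ifi204 at 2.74 (adjusted p = 0.000249), Ifi207 at 2.35 (adjusted p = 0.0208) and Ifi209 at 4.96 (adjusted p = 0.0464). Without control replicate 2 alone, the library with high Hspa5, Ifi203 did not pass (adjusted p = 0.066), and without either IFN library of day 21 Ifi211 did not. With only the groups compared, 2 members passed and Ifi211 was lost (adjusted p = 0.229). Over all tested genes, 25 of 15650 were called higher in that fit, 337 of 15526 with DESeq2 and 145 of 17289 in the main fit. The fit without both control libraries also called more genes higher than the main fit.

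The change of the IFN effect from day 14 to day 21 was tested directly. None of the 9 members passed (edgeR), as for 0.00% of all tested genes. DESeq2 called 0 as well, and 1 member, Ifi211, had an unadjusted p under 0.05 in edgeR. All 9 differences were negative, with a median of -1.09 beside 0.02 over all tested genes. Ifi211 gave -1.70 ± 0.40 (interval -2.60 to -0.81, adjusted p = 0.652) and Aim2 -0.12. The 12 reference interferon-stimulated genes also all gave negative differences, with a median of -1.21. Without both control libraries that stood apart, Ifi211 was called and Ifi213, Ifi214 and Aim2 turned positive (0.59, 1.24 and 0.25).

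At day 0, none of the 9 members passed between IFN and control (edgeR), with 0.00578% of all tested genes called in either direction, and DESeq2 called 0, as did edgeR without both control libraries that stood apart. The groups overlapped for every member, and Ifi207 was the only 1 with an unadjusted p under 0.05 (27.2 and 5.47 CPM in control, 6.32 and 4.37 CPM with IFN, log2 fold change -1.61 ± 0.59). Mndal measured 25.1 and 22.2 CPM in control and 24.1 and 21.9 CPM with IFN (-0.04). The high control value of Ifi207 came from replicate 1, the library with high CT010467.1, which was also the higher for Ifi204 (11.7 against 2.42 CPM) and the lower for Ifi203 (9.67 against 23.1 CPM). Some members were barely detected at day 0 in either arm: Ifi209 totalled 8 counts in the 2 control libraries and 6 in the 2 IFN libraries, and Ifi214 had 2 and 2. The 12 reference interferon-stimulated genes all gave positive log2 fold changes at day 0, and none passed. Their median was 0.72, beside 0.0049 over all tested genes, and its source was not tested.

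**Figure D3:**
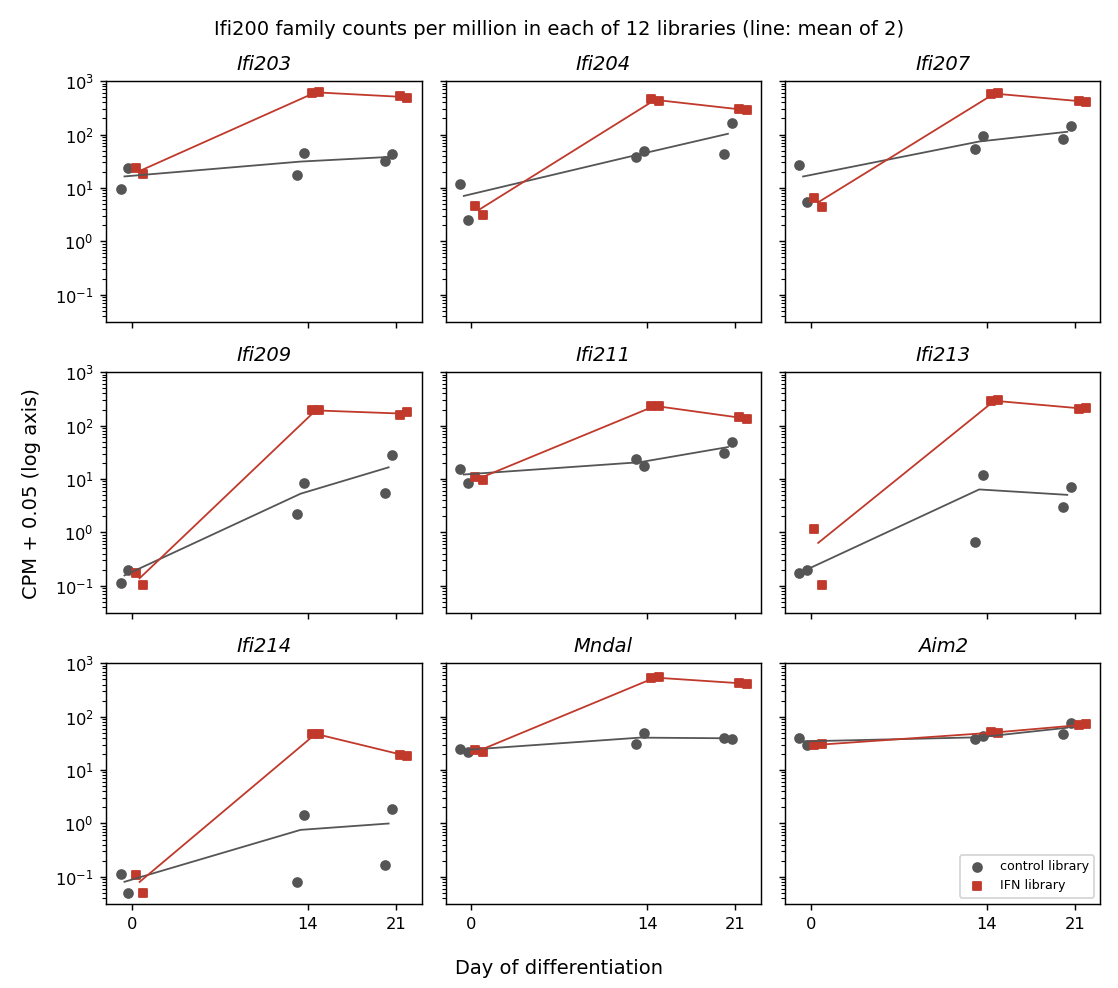
CPM of each member in every library by day of differentiation, on a log axis after adding 0.05 CPM, with circles for control, squares for IFN and lines through the means of 2 libraries. In 8 panels the IFN squares of days 14 and 21 lie above the control circles of those days; in the Aim2 panel they stay within 50.1 to 71.8 CPM beside 38.4 to 75.9 CPM in control.

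Within the IFN arm, 8 of the 9 members rose from day 0 to day 14, against 5.18% of all tested genes called higher. Ifi209 went from 0.121 and 0.0554 CPM to 192.3 and 192.8 CPM, a log2 fold change of 11.05 ± 1.12 (adjusted p = 0.000336) that rests on 6 counts at day 0. Ifi214 had 2 counts in the day 0 libraries and 3211 at day 14, a ratio of 1646 with a counting interval of 455.3 to 1.36e+04, and its call was lost without either IFN library of day 0. The 3 neighbours at the Ifi203 end, which started higher, rose by 4.90 ± 0.50 (Ifi203), 4.55 ± 0.24 (Mndal) and 4.52 ± 0.33 (Ifi211).

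The DNA sensor Ifi204 and its neighbour Ifi207 rose by nearly the same amount from day 0 to day 14, 6.86 ± 0.82 and 6.78 ± 0.73, and Ifi213 by 8.98 ± 1.33. Aim2 went from 29.2 and 30.1 CPM to 50.7 and 50.1 CPM. It did not overlap, as 37.9% of all tested genes did not in this direction. Its difference of 0.76 ± 0.22 missed the threshold (adjusted p = 0.0549). Aim2 was called, making 9 members, with DESeq2, with library size alone, with no filter on low counts, with only the groups compared, without both control libraries that stood apart, and in 4 of 12 fits that left out 1 library. Of all tested genes, 4712 of 15603 were called higher with only the groups compared and 1326 of 16842 with DESeq2. With library size alone these were 779 of 17289, and with no filter 1298 of 33962. The fit without both control libraries also called more genes higher than the main fit. The rest of the family followed the 8: the 4 tested genes all rose, with a median of 7.61.

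From day 14 to day 21 with IFN, none of the 9 members passed, as for 0.00% of all tested genes in edgeR. DESeq2 called 0, and Ifi211 alone had an unadjusted p under 0.05. The direction was nonetheless shared: 8 members were lower in both libraries of day 21 than in both of day 14, which held for 29.6% of all tested genes. The differences ran from -0.20 for Ifi209 to -1.33 for Ifi214, whose CPM went from 47.5 and 47.7 to 19.5 and 18.4. Ifi211 gave -0.76 ± 0.28, with 234.9 and 232.8 CPM at day 14 and 142.4 and 133.9 CPM at day 21. Aim2 was higher at day 21 in both libraries (0.48), as were 30.5% of all tested genes. When only the 4 libraries of these 2 groups were fitted, without the control libraries in the estimate of spread, 9 of 9 were called. Calls were common over the whole table in that fit, with 2430 of 15564 tested genes higher and 2072 lower.

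In control cells, which received no added IFN, 1 of the 9 members rose from day 0 to day 14, against 1.55% of all tested genes called higher. That member was Ifi209, at 0.0616 and 0.151 CPM on day 0 and 2.14 and 8.37 CPM on day 14 (5.53 ± 1.04, adjusted p = 0.0234). All 9 differences were positive, and both day 14 libraries lay above both day 0 libraries for 6 members (Ifi204, Ifi207, Ifi209, Ifi211, Ifi213 and Mndal), against 21.4% of all tested genes. Ifi213 gave 5.48 (adjusted p = 0.0771), Ifi204 2.61 (0.0818), Ifi207 2.18 (0.0884) and Mndal 0.78 (0.0855), each as log2 fold change and edgeR adjusted p. Ifi214 had 2 counts at day 0 and 47 at day 14, a ratio of 25.72 with a counting interval of 6.734 to 218.6.

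The call of Ifi209 in control was kept in 3 of 12 fits that left out 1 library, those without control replicate 1 of day 14 or a control library of day 21. DESeq2 called 5 members in this comparison, and edgeR called 4 without both libraries that stood apart. Those 4 were Ifi204, Ifi207, Ifi211 and Aim2, while Ifi209 was lost there (5.10, adjusted p = 0.0886). With only the groups compared, 0 were called. Over all tested genes, 83 of 15331 were called higher in that fit, 682 of 16842 with DESeq2 and 268 of 17289 in the main fit. The fit without both control libraries also called more genes higher than the main fit. In the rest of the family, Ifi205 (3.25, adjusted p = 0.0401) and Ifi203-ps (2.17, adjusted p = 0.0247) rose. From day 14 to day 21 in control, none of the 9 passed (0.0289% of all tested genes did in either direction). DESeq2 called 0, as did edgeR without both, 3 members (Ifi209, Ifi211 and Aim2) had an unadjusted p under 0.05, and Ifi211 and Aim2 were higher without overlap, by 0.94 and 0.60, against 17.8% of all tested genes.

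The control libraries of day 14 differed from each other across the family. Replicate 2 was higher than replicate 1 for 8 of the 9 members, by a median of 0.80 and up to 4.18 on the log2 scale, Ifi211 being the exception at -0.40. It was also higher for 12 of 12 reference interferon-stimulated genes, by a median of 1.97, while the median over all tested genes was 0.0034. With IFN at day 14, the same member differences ran from -0.08 to 0.05. In control at day 21, replicate 2 was higher for 8 of the 9 members (median 0.83) but for 6 of the 12 reference genes (median -0.13), so there the family and the reference genes did not move together. In control at day 0, it was higher for 3 of the 9 members and for 12 of the 12 reference genes. The source of these differences between libraries was not tested.

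**Figure D4:**
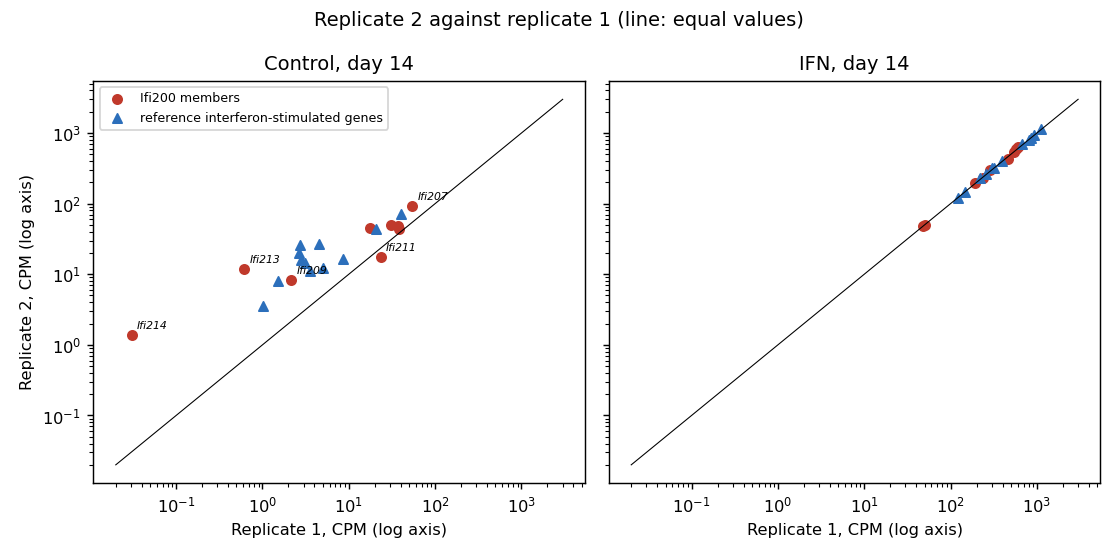
CPM in replicate 2 against replicate 1 at day 14 for the 9 members (red circles) and 12 reference interferon-stimulated genes (blue triangles), on log axes with the line of equal values, control at left and IFN at right. In control, all points but Ifi211 lie above the line, and with IFN all lie close to it.

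Summed, the 9 members took 128.9 and 91.4 CPM in control at day 0. They took 205.1 and 319.8 CPM by day 14, and 284.3 and 550.8 CPM by day 21. With IFN the sums were 99.6 and 87.3, then 2992 and 3020.05, then 2268 and 2208 CPM. The rest of the family is not in these sums, and Ifi206, the highest of the rest, measured 559.0 and 560.2 CPM with IFN at day 14. The make-up changed as well: Aim2 held 30.5% and 32.1% of the counts of the 9 in control at day 0 and 29.3% and 34.5% with IFN. At day 14 it held 18.7% and 13.7% in control and 1.69% and 1.66% with IFN. In bulk libraries such as these, more cells expressing a gene and more RNA per cell cannot be told apart.

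Levels per exon length (RPKM, from GENCODE M21 exon lengths) set the members in order. At day 0 Aim2 was highest in both arms, at 9.82 ± 2.02 (SD, n = 2) in control and 8.48 ± 0.185 with IFN, and in control it was not separate from Ifi211, the next. With IFN at day 14 the order was Ifi207 at 171.0 RPKM, Mndal at 148.5, Ifi211 at 131.0, Ifi204 at 125.6 and Ifi203 at 92.2. Ifi209 at 54.3, Ifi213 at 42.7, Aim2 at 14.4 and Ifi214 at 5.87 RPKM followed, and each neighbour in this order was separate in both libraries. Ifi203, the member with the most reads, thus stood in place 5 per length, and Aim2 went from place 1 to place 8. In control at day 14, Ifi204 (12.03), Aim2 (11.7), Ifi211 (11.5) and Mndal (11.1 RPKM) were not separate from their neighbours in that order, below Ifi207 at 21.7. At day 21 with IFN the order was the same at the top, with Ifi207 at 122.1 and Mndal at 115.4 RPKM, and Aim2 at 20.02 RPKM stayed above Ifi214 at 2.34.

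The members' profiles over the 12 libraries were compared by the root-mean-square difference of centred log2 CPM. Libraries of a group share their condition, so this is a description with no test. Ifi204 and Ifi207, adjacent genes, were nearest to each other at 0.37, followed by Ifi203 and Mndal at 0.48. Ifi211 was nearest to Mndal at 0.57, Ifi213 and Ifi214 were nearest to each other at 1.01, and Ifi209 to Ifi213 at 1.16. Aim2 lay farthest from any other member, at 1.40 from Ifi211. Among 10875 genes outside the family, those nearest to the mean profile of the 9 were Oas1b at 0.52, Slfn5 at 0.65, Bst2 at 0.71, Slfn8 at 0.75 and Slfn2 at 0.81. Oas1b, a gene of the oligoadenylate synthetase family, averaged 4.97 CPM in control and 91.5 CPM with IFN at day 14, and Slfn2, Slfn5 and Slfn8 belong to the Schlafen family.

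Genes of DNA sensing, nucleic acid clearance, the inflammasome and interferon signalling were examined as lists. Of 24 tested genes of DNA sensing, 2 rose and none fell with IFN at day 14. These were Irf7, the transcription factor that amplifies interferon production (7.21 ± 0.42, adjusted p = 4.48e-05), and Zbp1, a sensor of Z-form nucleic acid (6.31 ± 0.53, adjusted p = 0.000302). Over the list the middle log2 fold change was 0.20, and 2.29% of all tested genes were called in either direction. Cgas, the main cytosolic DNA sensor outside the family, averaged 10.5 CPM in control and 19.8 CPM with IFN (0.92 ± 0.28, adjusted p = 0.143). Sting1, on which cGAS and p204 signals meet, averaged 5.27 and 6.78 CPM (0.36, adjusted p = 0.687).

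Of 12 genes of nucleic acid clearance, 3 rose at day 14 and none fell: Adar, an RNA-editing enzyme (2.07 ± 0.20, adjusted p = 0.000479), Trex1, a DNA exonuclease of the cytosol (1.91 ± 0.27, adjusted p = 0.00427), and Samhd1, which degrades deoxynucleotides (0.92 ± 0.17, adjusted p = 0.0195). Of 19 tested genes of the inflammasome and pyroptosis, 2 rose and 1 fell. Those that rose were Il18bp, which neutralizes interleukin-18 (1.93 ± 0.34, adjusted p = 0.0151), and Mlkl, which executes necroptosis (1.34 ± 0.24, adjusted p = 0.0165). Il1rn, the interleukin-1 receptor antagonist, fell by 2.26 ± 0.49 on the log2 scale (adjusted p = 0.041).

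The partners of Aim2 were at low levels. Pycard, which encodes ASC, averaged at most 0.215 CPM in any group, and Il1b, an inflammasome substrate, had 0 counts in 4 groups and was not tested. Casp1 averaged 1.80 CPM in control and 2.91 CPM with IFN at day 14, and Gsdmd, the pore former, 8.53 and 14.2 CPM. Of 12 tested genes of interferon signalling, 5 rose at day 14, among them the transcription factor genes Stat2 at 3.57 and Irf9 at 2.83. The 12 reference interferon-stimulated genes all rose, with a median of 5.49. At day 21, 2 genes of DNA sensing (Irf7 and Zbp1), 2 of clearance (Adar and Samhd1), 4 of interferon signalling and 12 reference genes rose and none fell, beside 0.995% of all tested genes called in either direction. None of the inflammasome genes passed there.

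PYHIN genes are also expressed in blood cells, so markers of other cell types were read beside them. The 12 macrophage markers summed to 30.4 to 33.1 CPM in control and 40.4 to 41.2 CPM with IFN at day 14, and to 23.4 to 33.3 and 38.4 to 41.0 CPM at day 21. Of these, 5 were tested at day 14 and Mpeg1, which encodes a pore-forming protein of phagocytes, rose from 0.379 to 13.2 CPM (5.11 ± 0.60, adjusted p = 0.00155). The other tested markers did not pass: Cd14 gave 0.67, Cd68 -0.64, Lyz2 -0.68 and Csf1r -1.81, and the median of the 5 was -0.64. The sums at day 0 were 41.5 to 55.7 CPM in control and 45.1 to 46.6 CPM with IFN. Tyrobp was at 0 in all libraries, and the group means of Ptprc, the pan-leukocyte gene, were at most 0.0616 CPM. Dendritic cell markers summed to at most 2.25 CPM and endothelial markers to at most 4.07 CPM. Of 10 osteoblast markers, 4 fell with IFN at day 14 (Col1a1, Ibsp, Sparc and Dlx5), against 0.995% of all tested genes called lower. At day 21, 2 fell, against 0.156%. Their part in the family's values was not tested.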

How the data were processed

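The submitters' processing notes name HISAT2, SAMtools and featureCounts as tools and mm10 as the genome build. Versions, annotation, use of strand and treatment of multiply mapped reads are not given in the sources used here. The deposited table holds a raw count of reads per gene symbol and library. Its columns marked NC were taken as the libraries labelled control.

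The tests were run with edgeR 4.0.16 under R 4.3.3. Of 55291 genes, filterByExpr with the 6 groups retained 17289. The fits used TMM scaling, robust quasi-likelihood dispersions, 1 mean per group (6 residual degrees of freedom) and an adjustment after Benjamini-Hochberg over all retained genes. The script was tested on simulated data. All 9 members were tested in every comparison, and not every member is named in each. CPM values use TMM-scaled library sizes, and log2 CPM for profiles used a prior count of 2. DESeq2 1.42.0, scalings, filters, a replicate term and omitted libraries were tried as alternatives. Positions and exon lengths come from GENCODE M21, which matched 53292 of the symbols, and promoters from RefSeq. Standard errors are the log2 fold change divided by the square root of the F statistic. Counting intervals cover counting error only. The members, gene lists and tests were chosen with earlier results of these data known.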

Additional observations from a re-analysis of the deposited data

How the results depend on the processing

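Member counts called under each alternative used the same 12 libraries unless stated. At day 14 the count of 8 stayed between 7 and 8: Ifi213 was lost with only the groups compared (adjusted p = 0.0838) and without both control libraries that stood apart, and Ifi204 with the replicate block. At day 21 the count of 3 became 5 with library size alone, 6 with DESeq2, 8 with no filter on low counts, 7 without both control libraries, and 2 with only the groups compared, where Ifi211 was lost. With no filter the counts were also 2 in place of 0 at day 0, 1 in place of 0 for IFN day 21 against day 14, 8 in place of 1 in control from day 0 to day 14, 3 in place of 0 in control from day 14 to day 21, and 3 in place of 0 for the change of the IFN effect. Without both control libraries they were 2 for IFN day 21 against day 14, 4 in control from day 0 to day 14, and 1 for the change of the IFN effect. With only the groups compared, they were 9 for IFN day 21 against day 14 and 0 for control day 14 against day 0, where DESeq2 gave 5. Calls over all tested genes changed as well. With no filter, 443 of 33962 were called higher at day 21, beside 145 of 17289 in the main fit. In control from day 0 to day 14 these were 835 of 33962 and 268 of 17289. With no filter, 22 of 33962 were called higher and 66 lower at day 0, beside 1 in either direction in the main fit. For IFN day 21 against day 14 these were 228, 46 and 0. In control from day 14 to day 21 they were 894, 532 and 5, and for the change of the IFN effect 148, 238 and 0. With only the groups compared, 2430 of 15564 were called higher and 2072 lower for IFN day 21 against day 14. In the comparisons listed for it, the fit without both control libraries also called more genes than the main fit. The cause was not tested, beyond the change in genes or libraries that each alternative makes.

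Leaving out each of the 12 libraries in turn left 1 library in a group. In most comparisons the number of members called changed with the library left out. Calls over all tested genes changed widely between these fits too, so the member counts are not read as results about the members. At day 14 the lowest count, 3, came without IFN day 14 replicate 2. Leaving out replicate 1 of IFN day 14 or of IFN day 0, or a single IFN library from day 21, gave 4. Leaving out replicate 2 of IFN day 0 or replicate 1 of control day 14 gave 5, and control day 14 replicate 2 or a single control library from day 21 gave 6. At day 21, 6 passed without either control library of day 14.

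Directions turned for values that were not called. Without both control libraries, day 0 gave -0.16 for Ifi203, 0.66 for Ifi204, 0.25 for Ifi211, 0.052 for Mndal and 0.015 for Aim2, control day 21 against day 14 gave -2.57 for Ifi214, and the change of the IFN effect gave 0.59 for Ifi213, 1.24 for Ifi214 and 0.25 for Aim2. With library size alone, the latter was 0.061 for Ifi213 and 0.022 for Aim2. With DESeq2, day 0 gave -0.0090 for Ifi214. Leave-one-out ranges that crossed 0 at day 0 were -0.15 to 1.10 (Ifi203), -1.60 to 0.67 (Ifi204), -0.95 to 0.47 (Ifi209), -0.62 to 0.26 (Ifi211), -1.27 to 2.99 (Ifi213), -3.10 to 3.16 (Ifi214), -0.12 to 0.059 (Mndal) and -0.41 to 0.021 (Aim2). Aim2 at day 21 ran from -0.10 to 0.53. For control day 21 against day 14 they were -0.24 to 1.08 (Ifi203), -1.29 to 3.00 (Ifi213), -2.57 to 4.73 (Ifi214) and -0.35 to 0.33 (Mndal). For the change of the IFN effect they were -3.49 to 0.81 (Ifi213), -6.06 to 1.24 (Ifi214) and -0.37 to 0.25 (Aim2).

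Replicate numbers are shared between groups, but nothing in the labels says that they pair the libraries. Differences between replicates correlated between groups across genes by -0.05 to 0.11, and between control and IFN of the same day by -0.0090, 0.01 and -0.04. With the replicate number as a block, the counts were 0 at day 0, 7 at day 14, 4 at day 21, 8 for IFN day 14 against day 0, 0 for IFN day 21 against day 14, 1 in control from day 0 to day 14, 0 in control from day 14 to day 21, and 0 for the change of the IFN effect.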
